A study of Mus musculus with 8 samples.

Results

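The 10 genes described here encode adaptor proteins and kinases of focal adhesions, the sites where cells grip the extracellular matrix: Vcl, Tln1, Tln2, Ptk2, Pxn, Zyx, Ilk, Lims1, Parva and Fermt2. They were picked by name from the 57180 genes of the count and TPM tables, each matched a single gene identifier, and all 10 were among the 15660 genes that passed the filter on low counts. RNA sequencing measured them in mouse muscle stem cells, which repair skeletal muscle; the cells were sorted by FACS and taken straight from the animal. The control group held 4 libraries (replicates 2, 5, 7 and 8), given as WT in the labels. The other group held 4 libraries (replicates 5, 6, 7 and 8) titled RhoA het, given as SC-RhoAfl/+ in the design text and as RhoA knockdown in the genotype field, and is called RhoA het here. RhoA is a small GTPase that drives actomyosin contraction, and the stated question was which expression changes follow reduced RhoA activity. The driver of recombination, the animals' age and sex, and whether each library came from a separate animal are not given in the sources used here, so p-values measure only the spread between these libraries.

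At a focal adhesion, integrins in the membrane bind the matrix outside and a layered set of adaptors inside. Talins and kindlins bind integrin tails and switch the receptor on, vinculin reinforces the link from talin to actin under tension, and integrin-linked kinase, PINCH and parvin form a second bridge to actin. Focal adhesion kinase and its scaffold paxillin signal from the site, and zyxin marks adhesions and actin fibres under tension. RhoA acts on these structures through contraction, and through actin it also controls the transcription factor SRF, which binds the CArG box, a motif found in the promoters of many cytoskeletal genes.

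The promoter windows of 2 members held a CArG box, and these stretches are shown because SRF binds this motif. Whether SRF acts on these genes in these cells was not tested. RefSeq promoter windows (build GRCm38.p6, 250 bases before to 50 bases after a gene's start) were matched for 6 of the 10 members, in 9 windows. A CArG box lay in 1 window of Vcl and in 1 window of Fermt2. It lay in 1.63% of all 32851 windows of this length (535 windows). The motif reads the same on both strands. The capitals below mark the box, which begins 227 bases before the start of Vcl (chr14:20929148-20929220, plus strand) and 204 bases before that of Fermt2 (chr14:45530220-45530309, minus strand).
Vcl: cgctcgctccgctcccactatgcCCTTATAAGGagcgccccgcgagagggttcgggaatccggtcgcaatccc
Fermt2: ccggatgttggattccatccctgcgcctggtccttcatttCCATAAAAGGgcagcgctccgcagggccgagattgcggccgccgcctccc
These are matches of letters only, and no binding was measured here.

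Library totals lay between 19138763 and 25606342 assigned fragments. CPM below is the count of a gene scaled to a common, TMM-adjusted library total. For Rhoa, the targeted gene, the control mean was 325 ± 46.3 CPM and the RhoA het mean 265 ± 14.4 CPM (SD, n = 4 for either group). Its groups overlapped, and the values lay at the edge of the threshold before adjustment: -0.29 log2 units (SE 0.13, interval -0.59 to -0.00080; edgeR unadjusted p = 0.0495, adjusted p = 1; two-sided exact permutation p = 0.0571). It was lower in RhoA het in 3 of 3 pairs of same-numbered libraries. Muscle stem cell markers were present in every library: Pax7, the defining factor, was at 46.6 to 100.1 TPM (counts per gene length, scaled to a common total). The sum of 9 such markers lay between 7733 and 11675 TPM in control and between 7384 and 13303 TPM in RhoA het, of which Sdc4 alone gave 4961 to 9376 TPM. Markers of other cells were present too, with sums of 1050.2 to 3027 TPM for 5 fibro-adipogenic and 82.7 to 975 TPM for 10 myofibre markers, and the groups overlapped in both sums. Some libraries stood apart, in 1 group or in both. RhoA het replicate 6 alone held 449 summed TPM of 10 endothelial markers, against 42.0 to 120.03 in every other library. The libraries numbered 5 held 149.7 (control) and 92.2 (RhoA het) summed TPM of 8 cell cycle genes, against 2.62 to 14.7 elsewhere. The Y-linked gene Ddx3y was at 300.4 TPM in control replicate 2, at 329.7 TPM in RhoA het replicate 6 and at most 0.0639 TPM in the other 6 libraries.

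All 10 genes were expressed, and 9 of them at levels above the median of the genes tested. Per gene length, Fermt2, the gene of kindlin-2, and Zyx, the gene of zyxin, were the most abundant, with 213 ± 26.9 and 209 ± 22.0 TPM over the 8 libraries (mean ± SD). These means lay above 95.4% and 95.3% of the genes tested. Lims1, which encodes the LIM-domain adaptor PINCH1, followed at 101 ± 20.9 TPM and Pxn, the paxillin gene, at 72.7 ± 9.08 TPM. A middle tier held Tln1 at 47.0 ± 7.89, Parva at 44.7 ± 5.59, Vcl at 35.2 ± 3.55 and Tln2 at 34.9 ± 5.75 TPM. Ptk2, the gene of focal adhesion kinase, stood at 14.0 ± 2.37 TPM. Ilk was listed lowest, at 2.97 ± 1.43 TPM.

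Neighbours in this order could not always be told apart. Fermt2 lay above Zyx in only 5 of 8 libraries, Tln1 above Parva in 4 of 8 and Vcl above Tln2 in 3 of 8. Zyx lay above Lims1, Tln2 above Ptk2 and Ptk2 above Ilk in 8 of 8 libraries, and in these cases the ranges over libraries did not overlap. Parva was above Vcl in 8 of 8 libraries although their ranges overlapped. Lims1 exceeded Pxn, and Pxn exceeded Tln1, in 7 of 8 libraries.

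**Figure D1:**
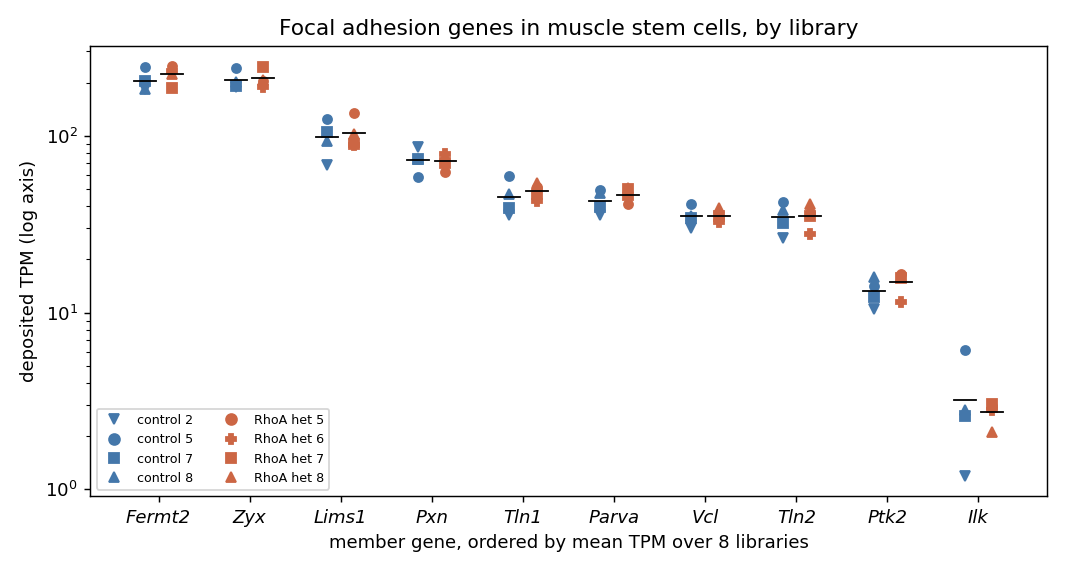
Deposited TPM on a log axis for the 10 focal adhesion genes in each of 8 libraries, with control in blue, RhoA het in orange, a marker shape per replicate number and a black line at each group mean. Fermt2 and Zyx averaged 213 and 209 TPM, Ilk 2.97 TPM, and the groups overlapped for every gene.

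The place of Ilk in this order is uncertain because of where the gene lies. Ilk (mm39 chromosome 7, 105385799 to 105392132, plus strand) encodes integrin-linked kinase, a pseudokinase that holds PINCH and parvin at the integrin. Exons of 2 genes on the opposite strand, Taf10 and Rrp8, cover 2461 of its 2744 exon bases (89.7%). Only 8 of the 15660 genes tested (0.0511%), Ilk included, shared as much of their exons with another gene, and 65.3% shared none. The counts do not use strand, and the counting command set no option to count fragments that overlap several genes. Ilk was covered by 24 to 102 fragments per library, while the other members had between 902 (Ptk2) and 8818 (Zyx). Divided by the 283 bases that no other exon covers, the same counts would give 28.8 TPM, a calculation chosen after seeing the data. That would place the mean of Ilk, with a range of 11.6 to 59.9 TPM, below Tln2 and above Ptk2. Of the 2 genes that cover Ilk, Taf10, a subunit of the general transcription machinery with 45.9% of its exon bases shared, was at 1.27 TPM. Rrp8, with 9.98% shared, was at 23.3 TPM. How much of Ilk's low count comes from the overlap was not tested.

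Vcl (mm39 chromosome 14, 20979466 to 21083744, plus strand) shares 25.5% of its exon bases with Ap3m1 on the opposite strand. Per unshared base its mean would be 47.3 TPM in place of 35.2, which would move it above Parva. Tln1 shared 3.67% (with Creb3) and Zyx 4.38% (with Epha1); per unshared base Zyx would be at 218 TPM, above Fermt2, and the remaining 6 members shared none.

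**Figure D2:**
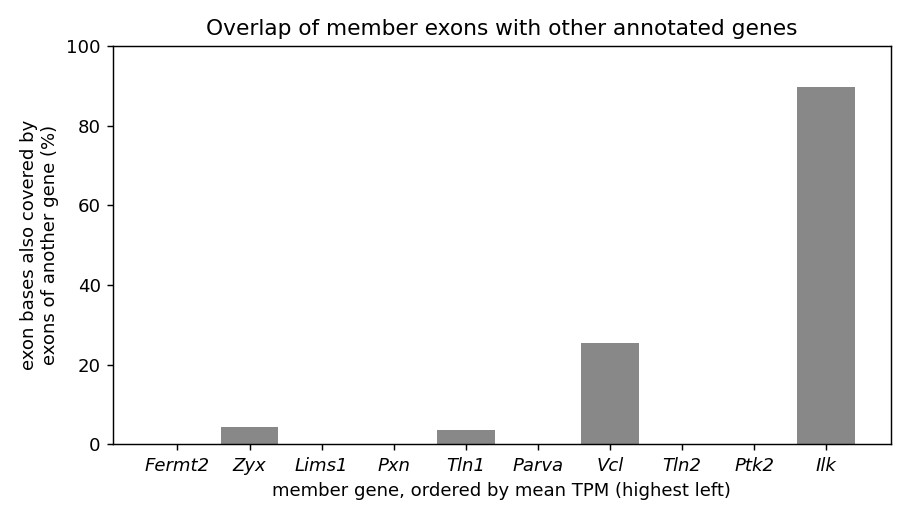
Percentage of each gene's exon bases that exons of another annotated gene also cover, with the genes ordered by mean TPM. Ilk stands at 89.7% and Vcl at 25.5%, Zyx and Tln1 are at 4.38% and 3.67%, and the other 6 genes are at 0.

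The members were then compared between RhoA het and control. None of the 10 genes was called changed (edgeR quasi-likelihood test, Benjamini-Hochberg adjusted p = 1 for each), and none had an unadjusted p under 0.05. Across all 15660 genes the test called 0 (0.0%), and 372 genes (2.38%) had an unadjusted p under 0.05. That second count was 703 without control replicate 5, 827 with a replicate block, 839 with the block as a random effect and 912 without the filter on low counts. DESeq2 also called 0 genes, with 507 of 32274 at an unadjusted p under 0.05. Of the members, 5 had a positive and 5 a negative log2 fold change, and 49.9% of all genes tested had a positive one. The median log2 fold change was -0.010 over the members and -0.00071 over all genes tested; leaving out 1 library at a time moved the members' median between -0.075 (without control replicate 7) and 0.043 (without control replicate 5). The median size of the change, whatever its sign, was 0.056 log2 units over the members and 0.14 over all genes tested. For all 10 members the groups overlapped in CPM, while 284 genes (1.81%) had groups that did not overlap.

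The intervals show how large a change these libraries could have missed. For the 9 members other than Ilk, the 95% confidence intervals ran from -0.61 at the lowest (Pxn) to 0.42 at the highest (Ptk2) on the log2 scale, or from 0.655-fold to 1.34-fold. For Ilk, with its low counts, the interval was -1.08 to 0.63. Exact permutation p-values of the single genes lay between 0.371 and 0.886 (two-sided, 70 assignments of 4 against 4 libraries, smallest possible 0.0286).

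**Figure D3:**
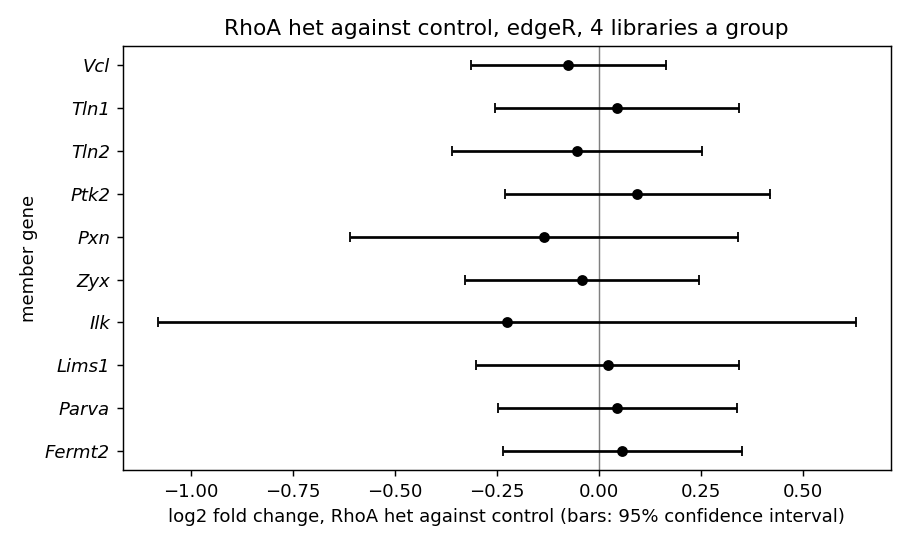
log2 fold change of each member gene, RhoA het against control, with its 95% confidence interval from edgeR over 4 libraries a group. All 10 intervals hold 0, and the widest, for Ilk, runs from -1.08 to 0.63.

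Among the integrin activators, talin-1 and talin-2 transcripts were alike in both groups. Tln1 (mm39 chromosome 4, 43531519 to 43562691, minus strand) was at 135, 162, 114 and 151 CPM in control replicates 2, 5, 7 and 8 and at 144, 137, 138 and 160.3 CPM in RhoA het replicates 5, 6, 7 and 8. The highest and the lowest library were both controls, so the RhoA het libraries lay inside the control range. Group means were 140.4 ± 20.9 and 145 ± 10.8 CPM (SD, n = 4 per group), and the fitted difference was 0.045 log2 units (SE 0.13, 95% interval -0.25 to 0.34).

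Tln2 (mm39 chromosome 9, 67124369 to 67466985, minus strand) encodes the second talin, which is prominent in striated muscle. It was at 189, 216, 178 and 227 CPM in the control libraries and 194, 165, 194 and 227 CPM in the RhoA het libraries, in the same order of replicates. Replicate 8 was the highest of both groups, at the same level. The fitted difference was -0.054 log2 units (SE 0.14, interval -0.36 to 0.25).

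Fermt2 (mm39 chromosome 14, 45696252 to 45767575, minus strand) was at 368, 353, 316 and 313.5 CPM in control and at 368, 394, 292 and 350.2 CPM in RhoA het. RhoA het held both the highest library (replicate 6) and the lowest (replicate 7). The fitted difference was 0.057 log2 units (SE 0.13, interval -0.24 to 0.35). Relative to Tln1 within each library, Fermt2 TPM was 4.61 ± 0.685 times as high in control and 4.59 ± 0.670 times in RhoA het (SD, n = 4 each).

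Vinculin, which binds talin and actin once force opens talin, had the steadiest transcript of the 10. Vcl was at 95.4, 94.5, 84.0 and 94.8 CPM in control and at 80.2, 87.0, 86.0 and 96.8 CPM in RhoA het. The control library of replicate 7 lay below 3 of the 4 RhoA het libraries, and the highest library of all was RhoA het replicate 8. Group means were 92.2 ± 5.47 and 87.5 ± 6.89 CPM (SD, n = 4 per group), and the fitted difference was -0.075 log2 units (SE 0.11, interval -0.31 to 0.16). Its coefficient of variation over the 8 libraries was 6.99%, against 10.9% for the median of the 9 members above 40 CPM and 15.2% for the median of the 3913 genes at or above that level.

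The bridge of integrin-linked kinase, PINCH1 and alpha-parvin was measured by Ilk, Lims1 and Parva. Lims1 (mm39 chromosome 10, 58159288 to 58260513, plus strand) was at 137, 179.6, 161 and 157 CPM in control and at 198, 148, 139 and 159 CPM in RhoA het. The libraries numbered 5 were the highest of each group. It differed by 0.021 log2 units between the groups (SE 0.14, interval -0.30 to 0.34).

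Parva (mm39 chromosome 7, 112026712 to 112190899, plus strand) encodes the actin-binding arm of the bridge. It was at 139.6, 139.7, 120.1 and 157 CPM in control and at 119.3, 147, 152 and 156 CPM in RhoA het, so the lowest and the highest library of one group nearly matched those of the other. It differed by 0.045 log2 units between the groups (SE 0.13, interval -0.25 to 0.34). The ratio of Lims1 to Parva in TPM was 2.28 ± 0.372 in control and 2.27 ± 0.676 in RhoA het (SD, n = 4 each), with its highest value, 3.28, in RhoA het replicate 5.

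Ilk was at 1.27, 4.74, 2.14 and 2.54 CPM in control and at 2.35, 2.52, 2.51 and 1.75 CPM in RhoA het. Both extremes were control libraries (replicate 5 the highest and replicate 2 the lowest), and the RhoA het libraries lay between them. The log2 fold change was -0.23 (SE 0.38), and it was 0.19 without control replicate 5.

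Of the signalling pair, Ptk2 (mm39 chromosome 15, 73076951 to 73295129, minus strand), which encodes the tyrosine kinase that responds to integrin engagement, was at 47.6, 46.8, 43.2 and 61.5 CPM in control and at 56.2, 44.0, 55.7 and 56.7 CPM in RhoA het. In control replicate 8 stood above the others, and in RhoA het replicate 6 stood below them. Its log2 fold change, the highest among the members, was 0.094 (SE 0.14, interval -0.23 to 0.42).

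Pxn (mm39 chromosome 5, 115644735 to 115694046, plus strand), the scaffold on which focal adhesion kinase docks, varied most after Ilk in CPM, but not in TPM. It was at 295, 144, 195 and 212 CPM in control and at 157, 226, 185 and 202 CPM in RhoA het. The coefficient of variation was 23.0% in CPM. In TPM Pxn was at 72.7 ± 9.08, a smaller spread beside its mean than that of Lims1 at 101 ± 20.9 (SD over the 8 libraries). Control replicate 2 and RhoA het replicate 6 were the highest libraries of their groups, and the libraries numbered 5 the lowest of theirs. The former are the libraries with Y-linked transcripts, and the latter those with 92.2 to 149.7 summed TPM of cell cycle genes; the part of either in the Pxn level was not tested. The fitted difference was -0.13 log2 units (SE 0.21, interval -0.61 to 0.34), and without control replicate 2 it was 0.067. The TPM ratio of Pxn to Ptk2 was 5.80 ± 1.88 in control and 4.99 ± 1.35 in RhoA het (SD, n = 4 each).

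Zyxin gathers at adhesions and stress fibres under tension and recruits actin-polymerising proteins. Zyx (mm39 chromosome 6, 42326564 to 42337147, plus strand) was at 395, 362, 308 and 357 CPM in control and at 316, 333, 395 and 338 CPM in RhoA het. Each group peaked at 395 CPM, control in replicate 2 and RhoA het in replicate 7. It differed by -0.042 log2 units between the groups (SE 0.13, interval -0.33 to 0.24). The TPM ratio of Zyx to Vcl was 5.85 ± 0.315 in control and 6.02 ± 0.707 in RhoA het (SD, n = 4 each).

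Same-numbered libraries resembled each other across groups over all genes, and the members were therefore also compared within the pairs numbered 5, 7 and 8. No member moved the same way in all 3 pairs (0 of 10). In pair 7, Zyx, Ptk2, Parva and Tln1 were higher in RhoA het, by 0.36, 0.37, 0.34 and 0.28 log2 units. In pair 5, Zyx, Parva and Tln1 were lower in RhoA het (-0.20, -0.23 and -0.17), while Ptk2 was higher (0.26). In pair 8, the members other than Ilk differed by -0.12 (Ptk2) to 0.16 (Fermt2). When the number entered the model as a replicate block (6 libraries), none of the members was called, while 2 of 15714 genes (0.0127%) were. In that fit the members' log2 fold changes lay between -0.081 (Vcl) and 0.15 (Ptk2), apart from Ilk at -0.47. With the block as a random effect over all 8 libraries 0 genes were called. There the members lay between -0.069 (Vcl) and 0.13 (Ptk2), apart from Ilk at -0.23.

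**Figure D4:**
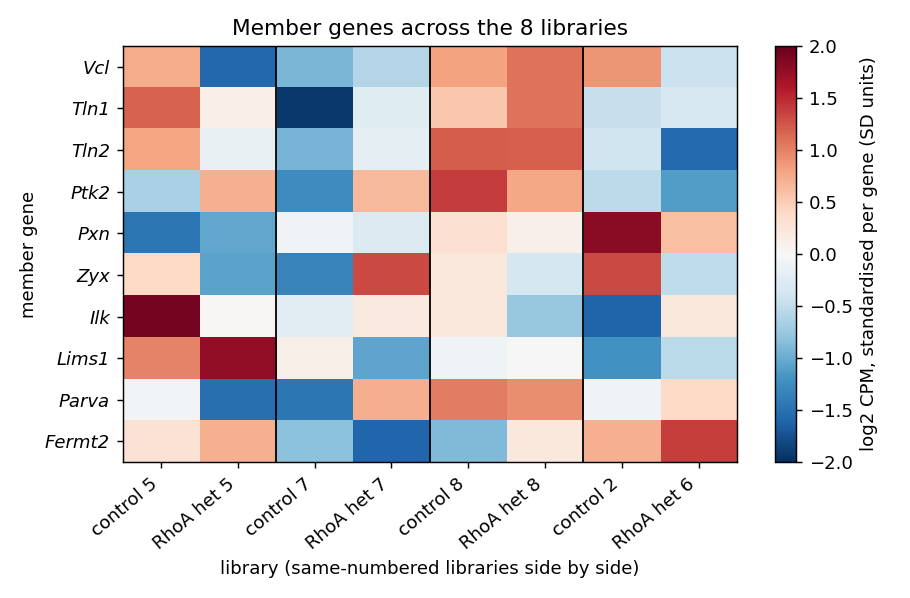
log2 CPM of each member gene, standardised over the 8 libraries (colour scale in SD units), with same-numbered libraries of the groups side by side and the unpaired libraries at the right. No member is higher, or lower, in RhoA het in all 3 pairs. Pxn is low in both libraries numbered 5 and Lims1 is high in both.

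The members were also set against their own mean across libraries. The mean of their standardised log2 CPM ran from -0.88 SD in control replicate 7, where every member but Lims1 was below its own mean, to 0.48 SD in control replicate 8. Pearson's r of single members with this mean, which contains them, ran from -0.042 (Pxn) to 0.93 (Tln1) over the 8 libraries. Tln2 (0.80), Vcl (0.77) and Parva (0.72) also had high values, while Lims1 (0.023), Fermt2 (0.094) and Ilk (0.20) had low ones. Part of each r is built in, and the r of unrelated genes with such a mean was not computed. Whether the members moved together was therefore not tested. Among all other named genes tested, the 5 with the highest r to this mean were Agap3 (0.97), Map7d2 (0.95), Gm47826 (0.95), Kif21b (0.95) and Stx6 (0.94). They were picked as the highest over all genes tested, in 8 libraries that also differ in depth and in the marker sums given above, so these values describe likeness in these libraries and carry no test.

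Several members have paralogues. Fermt2, Ptk2, Parva and Lims1 each held most of their family's TPM, while both talins are members and were at similar levels. Within the talins, Tln1 made up 56.4 ± 1.72% of the summed TPM in control and 58.3 ± 1.76% in RhoA het (SD, n = 4 each). Kindlin-2 was nearly alone: Fermt2 made up 99.5% to 99.8% of kindlin TPM over the libraries. Fermt1, the epithelial kindlin, had no fragment in any library, and Fermt3, the kindlin of blood cells, was at 0.765 TPM on average.

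Ptk2 made up 93.9% to 99.2% of the TPM of Ptk2 and Ptk2b, Parva 90.7% to 99.7% of that of the parvins, and Lims1 76.3% to 96.1% of that of Lims1 and Lims2. For each of these 3 shares the lowest library was RhoA het replicate 6. None of the 5 shares differed between the groups beyond the spread of the libraries (two-sided exact permutation p from 0.257 for Tln1 to 0.743 for Parva, Benjamini-Hochberg adjusted p = 0.743 for each). The smallest p this design allows is 0.0286.

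Where the shares dropped, the other family member was high in 1 or 2 RhoA het libraries. Parvb was at 6.28 CPM in RhoA het replicate 6 and at most 1.69 CPM elsewhere. Its log2 fold change of 1.37 (SE 0.96) turned to -0.52 without that library. Lims2 was at 27.4 CPM in RhoA het replicate 6 and 19.7 CPM in RhoA het replicate 8, against 4.79 to 10.4 CPM in the other 6 libraries. Its log2 fold change was 1.04 (SE 0.54, edgeR unadjusted p = 0.0858), but 0.51 without RhoA het replicate 6. It was 0.13 with the replicate block and 0.36 in the same 6 libraries without the block. Lims2 had an unadjusted p under 0.05 in 4 of 17 alternative runs and was called in 0 of them. Ptk2b was likewise highest in these libraries, at 1.81 and 1.08 CPM, against at most 0.581 CPM elsewhere, and its log2 fold change fell from 0.86 (SE 0.59) to 0.22 without RhoA het replicate 6.

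These libraries also had the highest sums of mural markers, genes of the cells that wrap small vessels. The summed TPM of 5 mural markers was 718 in RhoA het replicate 6 and 917 in RhoA het replicate 8, against 204 to 429 in control and 267 to 281 in the other RhoA het libraries. Rgs5 alone gave 600.3 and 678 TPM of the sums in replicates 6 and 8, and Cspg4 was not raised in replicate 6 (5.72 TPM, against 4.55 to 11.4 TPM in control). Myh11 and Pdgfrb in RhoA het replicate 6 (50.2 and 27.1 TPM) were close to control replicate 8 (50.0 and 26.4 TPM). In RhoA het replicate 8 they were at 134 and 56.5 TPM. Kcnj8 was at 34.4 and 32.8 TPM in RhoA het replicates 6 and 8, above control replicate 2, the highest control, at 28.3 TPM. The endothelial sum was highest in RhoA het replicate 6, as given above, while RhoA het replicate 8, at 107 TPM, lay below control replicate 7 at 120.03 TPM. All 5 mural markers were tested and 0 were called; none was at 0 in all libraries. The part of these cells in the paralogue levels was not tested. In bulk RNA, more cells of a type and more RNA per cell cannot be told apart.

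Beyond the members, 43 other focal adhesion genes and paralogues were listed, and 41 of them were tested. None of the 41 was called. An unadjusted p under 0.05 was reached by 2, both higher in RhoA het, where 263 of all genes tested (1.68%) were. The same 2 genes were the only ones of the list whose groups did not overlap in CPM, which held for 284 of all genes tested (1.81%). Of the 41 genes, 27 (65.9%) had a positive and 14 a negative log2 fold change, while 49.9% of all genes tested had a positive one. The median was 0.031 over the list and -0.00071 over all genes tested. With 1 library left out, the list's median ran from -0.0013 (without control replicate 7) to 0.084 (without control replicate 5). The list as a whole was not tested.

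Those 2 genes were Pdlim7 and Lpp, both encoding LIM-domain proteins of actin filaments and adhesions; Lpp belongs to the zyxin family. Pdlim7 was at 177, 169, 162 and 167 CPM in control replicates 2, 5, 7 and 8 and at 222, 211, 195 and 219.9 CPM in RhoA het replicates 5, 6, 7 and 8. Every RhoA het library lay above every control library. This was a 1.26-fold difference, 0.33 log2 units (SE 0.10, interval 0.10 to 0.56; edgeR quasi-likelihood unadjusted p = 0.00968, adjusted p = 1).

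Lpp was at 135, 168, 149.9 and 155 CPM in control and at 209, 183, 169 and 204 CPM in RhoA het. The groups were again apart in CPM, though only just: control replicate 5 at 168 CPM against RhoA het replicate 7 at 169 CPM. It differed by 0.33 log2 units (SE 0.12, interval 0.060 to 0.60; edgeR quasi-likelihood unadjusted p = 0.0216, adjusted p = 1). Both genes are named because they had the smallest p of the list. In TPM the groups of Lpp overlapped, since control replicate 5 was at 27.3 TPM and RhoA het replicates 6 and 7 were at 25.6 TPM each. Neither gene passed adjustment over all genes.

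Fblim1, the migfilin gene that links kindlin to filamin, had the next smallest p among the genes with positive fold changes. It was at 8.37 and 11.6 CPM in RhoA het replicates 6 and 8 and between 2.55 and 3.71 CPM in the other 6 libraries, the former being the libraries with the highest mural sums. Its log2 fold change of 0.93 (SE 0.44) was 0.49 without RhoA het replicate 8. On the lower side the smallest p belonged to Bcar1, Tns3 and Src. Bcar1, the p130Cas scaffold phosphorylated by focal adhesion kinase and Src, had a control mean of 67.1 ± 9.76 CPM and a RhoA het mean of 57.4 ± 3.84 CPM (SD, n = 4 per group; log2 fold change -0.22, SE 0.13, exact permutation p = 0.0857). Tns3, a tensin, and Src, the kinase itself, had log2 fold changes of -0.29 each (SE 0.29 and 0.37). Bcar1 was lower in RhoA het in 3 of 3 pairs (-0.27, -0.58 and -0.015 in pairs 5, 7 and 8), with an edgeR unadjusted p of 0.0368 and an adjusted p of 0.92 under the replicate block, and its value was -0.13 without control replicate 7. Tns3 was also lower in 3 of 3 pairs (-0.0076, -0.20 and -0.27), and Src in 1 of 3. Without control replicate 8 the values were -0.063 for Tns3 and -0.070 for Src. None of these 3 genes passed adjustment over all genes in any alternative run.

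**Figure D5:**
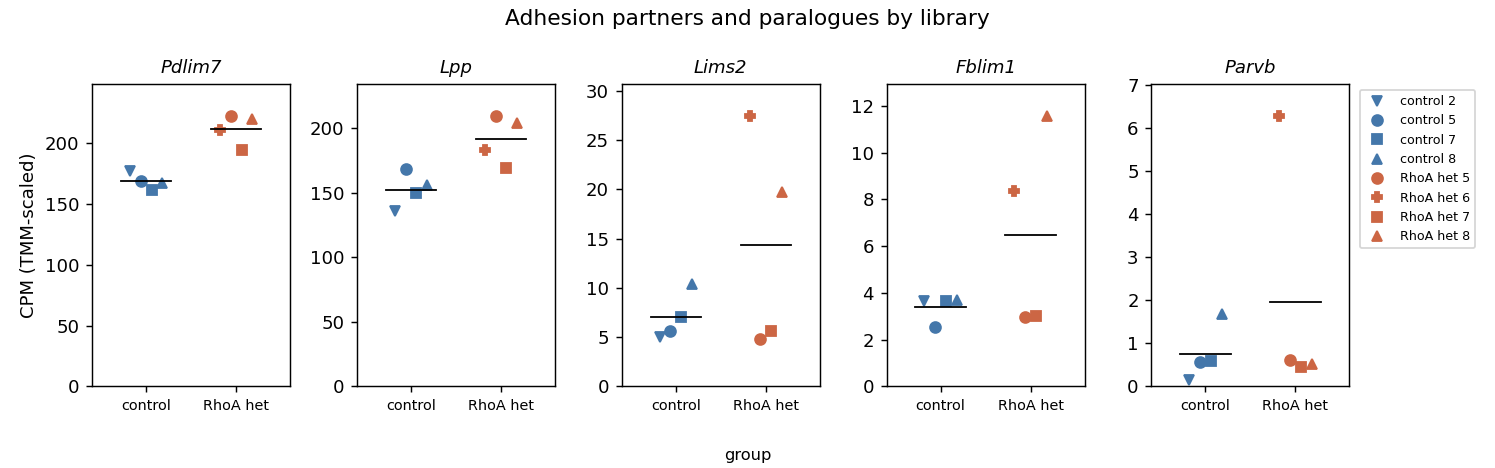
CPM of 5 adhesion partners and paralogues in each library, control in blue and RhoA het in orange, with a marker shape per replicate number, a black line at each group mean and every axis starting at 0. Pdlim7 and Lpp are higher in all 4 RhoA het libraries, whereas Lims2 and Fblim1 are high in RhoA het replicates 6 and 8 only and Parvb in replicate 6 only.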

How the data were processed

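The authors deposited counts per gene and TPM per gene for 8 libraries. Per the file headers, featureCounts 1.6.4 counted fragments (option -p) per gene over GENCODE M34 exons (mm39), and its command held no strand, multi-mapping or multi-overlap option. The submitters' processing notes also name STAR, FastQC, cutadapt and DESeq2. The deposited TPM equalled counts divided by gene length and rescaled (largest relative difference 2e-14). Symbols, matched by identifier without version, named 51884 of 57180 genes.

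Genes were filtered with filterByExpr, scaled by TMM and tested with edgeR's quasi-likelihood test (edgeR 4.0.16, R 4.3.3) without covariates over all 8 libraries, with Benjamini-Hochberg adjustment over all 15660 genes and a threshold of 0.05. Standard errors came from the F statistic. The procedure was tested on simulated data. log2 CPM used a prior count of 2. Single genes and shares also had exact permutation tests.

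Alternatives were DESeq2 1.42.0, limma 3.58.1, other scalings, no filter, a block on replicate number, and omission of each library in turn. Replicate numbers 5, 7 and 8 occur in both groups; deviations of same-numbered libraries from their group means correlated at 0.54, 0.23 and 0.49, so they were taken as pairs from the data, since the labels do not say what they mean. Named genes were the 10 members, 6 paralogues, the 3 list genes with the smallest p in each direction, the 5 genes most like the members, and Rhoa. Taf10, Rrp8, Ap3m1, Creb3 and Epha1 were added after the overlaps were seen, and Ddx3y and the comparisons of TPM ratios and of variation after the values were seen. The members and lists were chosen with earlier results of these data known. The header's command also named 2 alignment files not analysed here.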

Additional observations from a re-analysis of the deposited data

Results flagged for a closer look

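Libraries were checked for standing apart from the 3 others of their group by Dixon's ratio (critical value 0.829 for 4 libraries) in 54 sets of values: the members, the paralogue shares and the named adhesion genes in each group. Chance flags about 1 in 20 such sets, and 6 were found. The sets are not independent and some could not be flagged (Fermt1 was at 0 throughout), so this number is not set against an expected one.

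Among the members, Vcl in control replicate 7 was at 83.98 CPM, below the other controls at 94.5 to 95.4 CPM, and Ptk2 in RhoA het replicate 6 was at 44.0 CPM, below the other RhoA het libraries at 55.7 to 56.7 CPM. RhoA het replicate 6 stood apart in 3 further values: Parva made up 90.7% of parvin TPM there, against 98.8% to 99.3% in the other RhoA het libraries, Parvb was at 6.28 CPM against 0.448 to 0.610 CPM, and Parvg was at 0.190 CPM against 0. The Parva share and Parvb are one observation, since the share contains Parvb, and the Parvg value rests on 4 fragments. Fblim1 in control replicate 5 was at 2.55 CPM, against 3.64 to 3.71 CPM in the other controls.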

How the results depend on the processing

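Under 17 alternatives none of the 10 members was called (lowest adjusted p 0.92) and none reached an unadjusted p under 0.05 (lowest 0.146). The members' fold changes kept their sign in 148 of 170 cases and turned in 22. Some turns came in runs where the median over all genes tested also moved. It was 0.042 without TMM, 0.068 in limma on log2(TPM + 1) and 0.086 in limma on log2(TPM + 0.1). The cause of the turns was not tested. Without TMM, log2 fold changes turned to 0.0083 (Zyx) and 0.025 (Fermt3). In limma on log2(TPM + 1) they turned to 0.0052 (Vcl), 0.025 (Tln2), 0.040 (Zyx) and 0.0100 (Fermt3), and with a pseudocount of 0.1 to 0.0055 (Vcl), 0.026 (Tln2) and 0.040 (Zyx). With the replicate block they turned to 0.0031 (Zyx), -0.043 (Lims1), -0.73 (Parvb) and 0.14 (Src), and the block gave 2 called genes in place of 0; it changed no other call. In the same 6 libraries without the block they turned to 0.0057 (Zyx), -0.029 (Lims1), -0.87 (Parvb), 0.034 (Fermt3) and 0.042 (Src), and the Parva share rose by 0.850 percentage points in place of a drop. Leaving out each library in turn gave ranges of -0.29 to 0.067 for Pxn, -0.12 to 0.010 for Zyx, -0.095 to 0.080 for Lims1, -0.46 to 0.19 for Ilk, -0.044 to 0.11 for Tln1, -0.020 to 0.12 for Parva, -0.14 to 0.016 for Tln2, -0.0049 to 0.13 for Fermt2, -0.52 to 2.12 for Parvb and -0.28 to 0.17 for Fermt3. For the shares the ranges, in percentage points, were -1.79 to 0.00727 (Ptk2), -2.39 to 0.487 (Parva) and -0.0145 to 0.0826 (Fermt2). Those of Lims1 (-8.88 to -2.28) and Tln1 (1.04 to 2.55) kept their sign. Pdlim7 kept an unadjusted p under 0.05 in 17 of 17 alternatives (0.30 to 0.41 on the log2 scale) and Lpp in 11 of 17 (0.27 to 0.41). The median over the members turned to 0.034 without TMM and 0.068 in limma on log2(TPM + 1), and that over all genes tested to 0.042 and 0.068. In the latter fit the median over the other adhesion genes was 0.13. Leave-one-out ranges that kept their sign were 0.51 to 1.32 for Lims2, 0.22 to 1.15 for Ptk2b and 0.49 to 1.17 for Fblim1. Others were -0.55 to -0.063 for Tns3, -0.49 to -0.070 for Src, 0.030 to 0.21 for Ptk2 and -0.13 to -0.038 for Vcl. Bcar1 (-0.29 to -0.13), Rhoa (-0.37 to -0.21), Pdlim7 (0.30 to 0.36) and Lpp (0.27 to 0.38) kept theirs too. Among the 10 members, depth limits Ilk most, with 24 to 102 fragments a library; Parvb, Fermt3 and Ptk2b were at similar or lower counts.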
